A study of Rattus norvegicus with 19 samples.

Results

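The genes described here were those whose transcript level differed widely between individual Wistar rats of 1 sex while remaining within a narrow range over all SHR. They were selected on the measured values themselves, in messenger RNA sequencing of the hypothalamic paraventricular nucleus (PVN). A gene was a member when its highest Wistar level was at least 1 CPM (counts per 1000000 counts of its library), when the ratio (highest + 0.1)/(lowest + 0.1) within the Wistar males or within the Wistar females was at least 6, when the same ratio over all 10 SHR libraries was at most 3, and when the Wistar and SHR ranges overlapped. This left 149 of the 30560 genes in the table. The spread in Wistar, the spread in SHR and the overlap of the strains were therefore fixed by the choice, and they are given as descriptions with no test.

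The libraries came from 4 male Wistar, 5 female Wistar, 5 male SHR and 5 female SHR rats, each library from 1 rat, aged 14 weeks, with the females in dioestrus. No group carried a transgene or received a drug under study, and rats of all groups had undergone surgery for a blood pressure telemetry probe. Library totals were 50804166 to 52563411 counts in the Wistar males, 46647451 to 49049307 in the Wistar females, 49603020 to 58793511 in the SHR males and 44943945 to 55264420 in the SHR females. The Wistar males carried the replicate numbers 2 to 5, and libraries are named below by strain, sex and replicate number. Genes were given by Ensembl identifier only, and the files did not pair identifiers with symbols, so the members are named by identifier, without a position, a function or a sequence, and the tissue could not be checked against marker genes. For the same reason no group of the members by function could be formed.

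The PVN is a cell group beside the third ventricle that sets neuroendocrine output and sympathetic drive to the heart and vessels. The Spontaneously Hypertensive Rat (SHR) is an inbred strain, in which animals of 1 sex carry nearly the same alleles, and Wistar is an outbred stock, in which animals can carry different alleles of a gene. Punches of the PVN are taken by hand from frozen sections and can include differing amounts of neighbouring tissue. In such bulk samples, fewer cells of a type and less RNA per cell cannot be told apart.

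Of the 15200 genes that reached 1 CPM in a Wistar library, 288 spread 6-fold or more within a Wistar sex. Among these, 130 spread more than 3-fold over SHR as well, and 158 did not. In 9 of the 158 the strains did not overlap, which left the 149 members. The spread passed the limit in females only for 93 members, in males only for 29 and in both sexes for 27. The rule with the strains exchanged was met by 1 gene, ENSRNOG00000017767, although 14926 genes reached 1 CPM in SHR, of which 43 spread 6-fold or more within an SHR sex. The exchanged rule had 5 and 5 libraries for the spread within a sex and 9 for the limit, against 4 and 5 and 10 for the members.

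The largest ratio within a Wistar sex ran from 6.001 to 232 over the members with a median of 9.17, and their SHR ratio had a median of 2.18. Over all 15200 genes the corresponding medians were 1.42 and 1.38. Most members were transcripts of low level. The median Wistar level was under 1 CPM in 65 members and at least 10 CPM in 20. The members just inside the 6-fold limit were ENSRNOG00000024815 at 6.001, ENSRNOG00000052173 at 6.16 and ENSRNOG00000003172 at 6.18, and the genes just outside were ENSRNOG00000065021 at 5.99, ENSRNOG00000024082 at 5.99 and ENSRNOG00000011823 at 5.98. At the 3-fold SHR limit ENSRNOG00000064224 (2.99), ENSRNOG00000019336 (2.98) and ENSRNOG00000015541 (2.97) were just inside, and ENSRNOG00000005906 (3.00), ENSRNOG00000052665 (3.00) and ENSRNOG00000069705 (3.01) just outside. The line between members and other genes was thus drawn through a dense run of values.

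The spread was not shared evenly among the 9 Wistar rats. Leaving out Wistar female 1 removed 58 members, and leaving out Wistar female 4 removed 39. Each of the other 7 Wistar libraries, left out alone, removed 10 to 16. Wistar female 1 was the lowest female in 44 of the 58 and the highest in 14, whereas Wistar female 4 was the highest female in 34 of its 39. No single Wistar library was needed for 26 members, 1 was needed for 59, 2 for 61 and 3 for 3. A gene set chosen for its range in 4 or 5 rats depends by construction on the extreme rat, and the counts differed between rats.

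**Figure D1:**
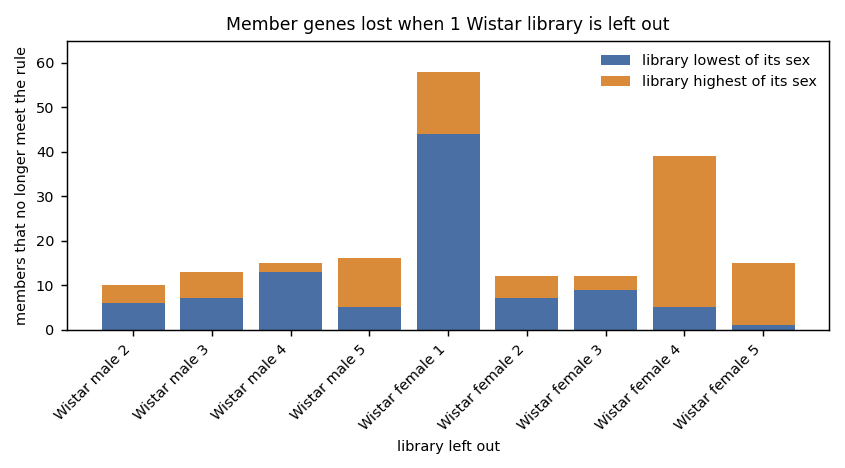
The bars give the number of members (vertical axis) that no longer met the rule when the Wistar library on the horizontal axis was left out, split by whether that library was the lowest (blue) or the highest (orange) of its sex. Wistar female 1 removed 58 and Wistar female 4 removed 39, against 10 to 16 for each of the other 7.

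Wistar female 1 also stood apart over a wider set of genes, members included. Among 14348 genes with a median of at least 1 CPM over all libraries, 478 were at least 2-fold lower in it than the median of the other 8 Wistar libraries and 140 at least 2-fold higher, together 4.31%. That share was 0.425% to 2.09% in the other Wistar libraries and 0.0767% to 1.38% in the SHR libraries. Wistar female 4 and Wistar male 3 had shares of 1.46% and 0.690%, but they were at least 2-fold above the other Wistar libraries in 52 and 40 members, the most of any library. These ratios to a median, and those below, had 0.1 CPM added to both levels. The part of tissue sampling or RNA quality in these libraries was not tested. Members are therefore described with and without these 3 libraries, a choice made after the values were seen: without them 42 genes met the rule, all 42 of them among the 149. The exchanged rule then gave 7 genes.

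The 149 members were sorted by these libraries into 4 sets. The 42 that met the rule without the 3 libraries formed 1 set. Of the rest, the 42 that needed Wistar female 1 and had their lowest Wistar level there were set aside first, 12 of which had their highest level in Wistar female 4. A further 33 had their highest Wistar level in Wistar female 4, and 32 followed neither pattern. The sets were drawn from the same values, so the pattern that defines each is a description.

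**Figure D2:**
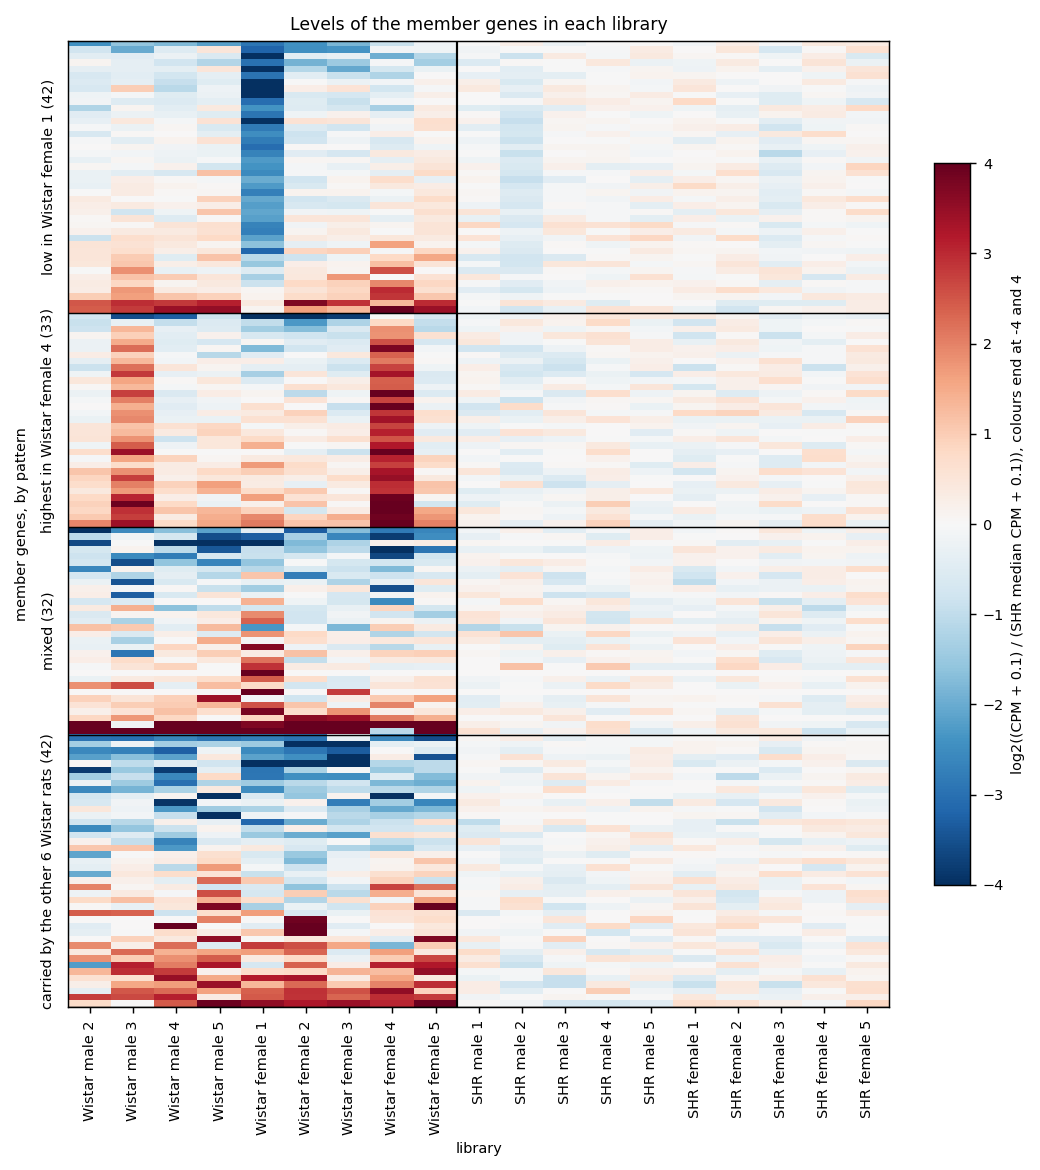
Each line of the map is 1 of the 149 members and each column 1 library, with colour for the log2 ratio of its level to the SHR median (0.1 CPM added to both), blue lower and red higher. Lines are sorted into the 4 sets and, within each, by the Wistar mean. The blue column of Wistar female 1, the red columns of Wistar female 4 and Wistar male 3, and the paler blue of SHR male 2 in the top set stand out, while the bottom set has no single library in common.

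In the 42 members low in Wistar female 1, that rat lay at a median of 0.182 times the median of the other 8 Wistar libraries (0.1 CPM added to both). The range was 0.00603 to 0.698 times. The set held the most abundant members. ENSRNOG00000021225 had 1084, 1842, 1304 and 2038 CPM in Wistar males 2 to 5. In Wistar females 1 to 5 it had 11.2, 2058, 1911, 1440 and 2175 CPM. SHR ranged from 723 to 1549 CPM with a median of 1367, so that 1 Wistar rat of 9 was far below every other rat of either strain. The ratio within the Wistar females was 192, and without Wistar female 1 the gene was no member.

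ENSRNOG00000021229 had 655, 2012, 481 and 879 CPM in Wistar males 2 to 5. Its levels in Wistar females 1 to 5 were 15.3, 1222, 1500, 608 and 978 CPM. In SHR it ranged from 810 to 1430 CPM. Wistar female 1 was far the lowest, although Wistar males 2 and 4 and Wistar female 4 were also below every SHR rat. Wistar male 3 was the highest of the 19 rats, and the ratio within the Wistar females was 97.4. ENSRNOG00000001837 had 43.5 CPM in Wistar female 1 against 251 to 430 CPM in the other 8 Wistar rats and 174 to 488 CPM in SHR. ENSRNOG00000027658 was less extreme, with 9.91 CPM in Wistar female 1, 28.2 and 29.2 CPM in Wistar females 3 and 2, 50.9 to 64.3 CPM in the other 6 Wistar rats and a median of 45.6 CPM in SHR. ENSRNOG00000017759 was at 0.395 CPM in Wistar female 1, at 4.61 CPM in Wistar female 4 and at 8.27 to 15.5 CPM in the other 7, with an SHR range of 10.04 to 24.1 CPM.

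A second library moved with these genes. SHR male 2 was the lowest of the 10 SHR libraries in 31 of the 42 (73.8%), whereas it was the lowest for 2930 of the 14348 genes (20.4%). Its level lay below the median of the other 9 SHR libraries in 39 of the 42, against 10124 of the 14348 genes. The median ratio was 0.651, against 0.945 over all these genes. In ENSRNOG00000021225 SHR male 2 had 723 CPM, below the next SHR male at 1394 CPM, and in ENSRNOG00000001837 it had 174 CPM, below the next SHR male at 410 CPM. SHR female 3 was also below the median of the other SHR in 31 of the 42, against 7311 of the 14348 genes. Its median ratio was 0.788, against 0.997 over all these genes. It was the lowest of all SHR in only 4 of the 42 (9.52%), against 2862 of the 14348 genes (19.9%). The members low in 1 Wistar rat thus had low levels in 1 or 2 SHR as well, within the 3-fold limit the rule sets, and what these rats shared was not tested.

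Relative to the other Wistar rats, the SHR level of this set was not shifted in 1 direction. The SHR median was 0.984 times the median of the 6 Wistar libraries other than the 3 left out, and it was below that median for 23 members and above for 19. Exceptions lay at both ends, at 0.123 and 3.96 times. One was ENSRNOG00000038979, with 0.322 to 1.86 CPM in 7 Wistar rats, 0.0831 CPM in Wistar female 1, 8.73 CPM in Wistar female 4 and at most 0.154 CPM in SHR. In that gene every Wistar rat but Wistar female 1 was above all SHR rats, so Wistar female 1 was needed for the overlap of the strains. ENSRNOG00000013720 and ENSRNOG00000019573 owed their spread to both Wistar female 1 and Wistar female 4. These rats had 8.65 and 56.9 CPM in the first gene and 3.89 and 38.4 CPM in the second.

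In the 33 members highest in Wistar female 4, that rat lay at 3.34 to 32.9 times the median of the other 8 Wistar libraries (0.1 CPM added to both). The median was 6.44 times. Wistar male 3 was the highest Wistar male in 32 of the 33 (97.0%), against 2418 of the 14348 genes (16.9%), and lay at a median of 2.83 times the other Wistar. The sex of these 2 rats differed, and 11 of the 33 passed the 6-fold limit in both sexes.

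ENSRNOG00000015550 was the most abundant of them. Wistar males 2 to 5 had 121, 584, 84.2 and 63.8 CPM, and Wistar females 1 to 5 had 217, 104, 98.5, 1054 and 73.5 CPM. SHR ranged from 54.7 to 82.5 CPM, near the lowest of the Wistar rats. ENSRNOG00000020369 had 65.6 CPM in Wistar male 3 and 106 CPM in Wistar female 4 against 12.9 to 24.0 CPM in the other 7 Wistar rats and 8.95 to 24.5 CPM in SHR. In both genes the 2 rats were above all 17 others.

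Several genes of this set were close to absent elsewhere. ENSRNOG00000057404 was at 4.49 CPM in Wistar male 3, at 14.4 CPM in Wistar female 4 and at no more than 0.580 CPM in any other rat. ENSRNOG00000004210 was at 1.84 and 4.63 CPM in the same rats and at most at 0.193 CPM elsewhere, which corresponds to 94 and 227 counts against 0 to 10. ENSRNOG00000017409 was at 1.29 and 3.63 CPM and otherwise at most at 0.253 CPM. In ENSRNOG00000055049 (8.82 and 25.9 CPM) the other 7 Wistar rats had 0.457 to 1.92 CPM and SHR 1.02 to 2.75 CPM, and in ENSRNOG00000029911 Wistar female 4 was high at 12.8 CPM with Wistar male 3 at 1.27 CPM. The SHR median was 0.391 to 3.01 times the median of the 6 Wistar libraries other than the 3, with a median of 0.955 over the set, below it for 18 members and above it for 15.

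**Figure D3:**
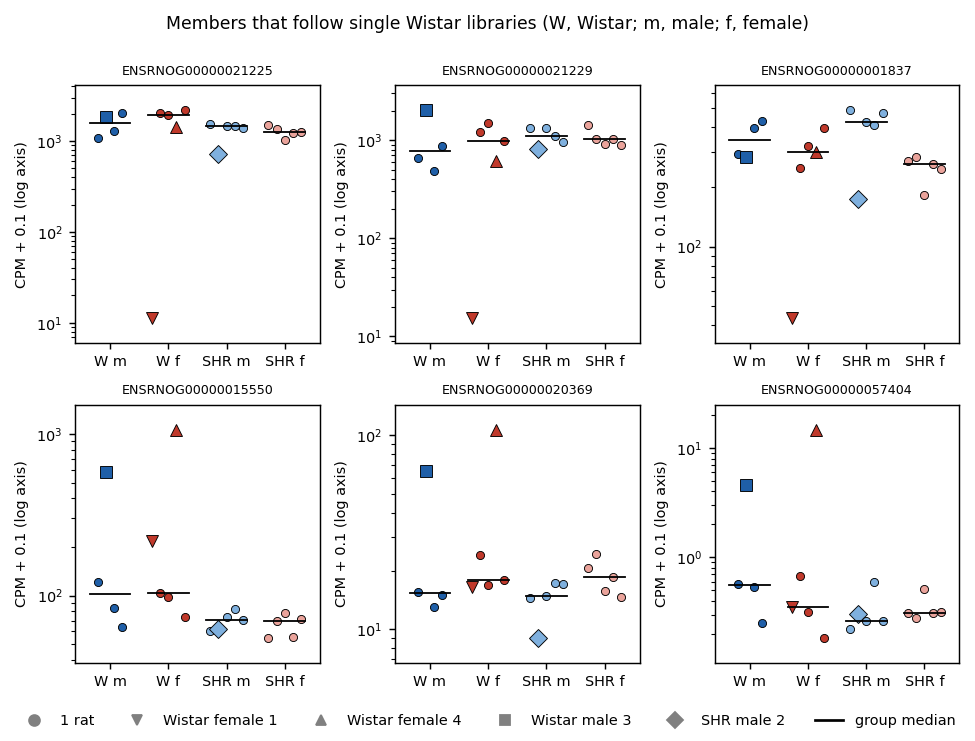
Each panel shows 1 member, with CPM + 0.1 on a log axis and 1 point per rat in the 4 groups, horizontal lines for group medians, and separate symbols for Wistar female 1, Wistar female 4, Wistar male 3 and SHR male 2. In the upper 3 panels Wistar female 1 lies below all other rats, at 11.2, 15.3 and 43.5 CPM, and in the lower 3 Wistar female 4 and Wistar male 3 lie above all others.

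The 42 members that met the rule without the 3 libraries had no rat in common. Their highest Wistar level fell in Wistar male 5 for 9, in Wistar female 5 for 9, in Wistar female 2 for 6 and in each of the other 6 for 1 to 5. Their lowest fell in Wistar male 2 for 11, in Wistar female 3 for 9 and in Wistar male 4 for 7. The spread passed the limit in males only for 17, in females only for 11 and in both sexes for 14. Rats of both sexes thus lay at either end.

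The member with the largest ratio, ENSRNOG00000026861, had 3 separate levels among the Wistar rats. Wistar males 2 to 5 had 29.5, 65.9, 29.7 and 31.8 CPM, and Wistar females 1 to 5 had 28.0, 0.207, 0.171, 57.7 and 62.9 CPM. Wistar females 2 and 3 were near 0, a middle level of 28.0 to 31.8 CPM held 4 rats, and an upper level of 57.7 to 65.9 CPM held 3. The SHR libraries had 61.1 to 84.9 CPM (73.3 ± 4.10 in males and 77.6 ± 9.49 in females, SD, n = 5 each), at and above the upper Wistar level, with no SHR rat at the middle or low level. The ratio within the Wistar females was 232 and the ratio over SHR 1.39.

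ENSRNOG00000065254 showed a similar arrangement with 1 rat at the low level. Wistar males 2 to 5 had 26.4, 29.0, 16.5 and 0.921 CPM, and Wistar females 1 to 5 had 27.4, 30.1, 14.6, 12.6 and 14.1 CPM. Wistar male 5 was lowest, 4 rats lay between 12.6 and 16.5 CPM and 4 between 26.4 and 30.1 CPM. SHR had 23.3 to 33.4 CPM with a median of 31.2, at the upper Wistar level.

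Other members had separate low and high levels. In ENSRNOG00000063848, Wistar male 5 and Wistar females 4 and 5 had 4.07, 4.65 and 3.19 CPM, and the other 6 Wistar rats had 0.364 to 0.707 CPM. SHR had 2.96 to 5.77 CPM, which spans the 3 high Wistar rats and runs past them at both ends, and no SHR rat was at the low level. In ENSRNOG00000011723, Wistar female 3 alone had 9.90 CPM, the other 8 Wistar rats had 0.966 to 1.96 CPM, and SHR had 9.58 to 15.1 CPM. The order was the opposite in ENSRNOG00000013152, in which Wistar male 5 alone had 3.26 CPM, the other 8 Wistar rats 13.2 to 22.7 CPM, and SHR 2.18 to 3.43 CPM. In each of these last 2 genes 1 Wistar rat lay within the range of SHR and the other 8 lay outside it.

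ENSRNOG00000059957, which did not meet the rule without the 3 libraries, had 3.80 CPM in Wistar male 3 and 4.40 and 4.83 CPM in Wistar females 4 and 5. Wistar females 2 and 3 had 1.08 and 1.59 CPM, and the remaining 4 Wistar rats 0.0831 to 0.228 CPM. SHR ranged from 2.89 to 4.78 CPM, at the high level.

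Some members were on in some Wistar rats and off in others. A library was called off at 0.1 CPM or less, about 5 counts at these depths. A count of 0 allowed a level of up to 0.0510 to 0.0667 CPM (3 counts, counting error only), or 0.102 to 0.134 CPM if both reads of a pair were counted. At least 1 Wistar library was off in 49 of the 149 members, and the other 100 were graded. In 30 of the 49 exactly 1 Wistar library was off. The share differed between the sets, at 13 of the 42 that met the rule without the 3 libraries, 7 of 42 low in Wistar female 1, 9 of 33 highest in Wistar female 4 and 20 of the 32 others.

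SHR had each of the possible states in these on/off members. No SHR library was off in 28 of the 49, all 10 were off in 4, and some were off in 17. ENSRNOG00000003606 was off in Wistar females 1 to 3, at 0.0416, 0.0829 and 0.00 CPM (2, 4 and 0 counts), and on in Wistar females 4 and 5 at 1.18 and 1.26 CPM and in all 4 Wistar males at 1.29 to 2.82 CPM. SHR was on, with 1.77 to 3.48 CPM. ENSRNOG00000068362 was off in Wistar male 5 with 0 counts and in Wistar female 4 with 2 counts, and had 34 to 124 counts in the other 7 Wistar rats and 82 to 146 counts in SHR.

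The reverse was seen in ENSRNOG00000070065, which had 0 counts in Wistar female 4 and 5.02 to 12.6 CPM (250 to 657 counts) in the other 8 Wistar rats. Its SHR levels were 0.0189 to 0.231 CPM (1 to 12 counts), so SHR lay far below the other 8 Wistar rats. The lowest SHR levels could not be told from the 0 counts of Wistar female 4. ENSRNOG00000069157 had 0.0392 CPM (2 counts) in Wistar male 3, 1.95 to 4.57 CPM in the other 8 Wistar rats and 0 to 0.154 CPM in SHR. Since the rule left out the 9 genes whose ranges did not overlap, 1 Wistar rat at or below the SHR levels kept each of these 2 genes among the members.

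The 4 members off in all 10 SHR libraries were ENSRNOG00000013133, ENSRNOG00000051360, ENSRNOG00000067545 and ENSRNOG00000025211, named here for being that few. With 0.1 CPM added in the ratio, genes this low in all SHR met the 3-fold limit whatever their counts. The same held for ENSRNOG00000069157, at 0 to 0.154 CPM in SHR. Among the named members it held too for ENSRNOG00000038979, ENSRNOG00000064118 and ENSRNOG00000004210, at most at 0.154, 0.135 and 0.193 CPM in SHR. The narrow SHR range of such members was fixed in advance. ENSRNOG00000013133 had 112 counts (2.33 CPM) in Wistar female 1 and 0 counts in every other library of both strains, the only member with 8 off Wistar libraries. ENSRNOG00000051360 had 84 counts in Wistar female 1, 28 counts in Wistar female 3 and 0 in the other 17. ENSRNOG00000067545 reached 1.12 and 0.986 CPM in Wistar females 2 and 3, and ENSRNOG00000025211 reached 1.37 CPM in Wistar female 2.

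Other members were high in a few rats. ENSRNOG00000064228 had 3.20 CPM in Wistar male 5 and 3.78 CPM in Wistar female 5, and between 0 and 0.367 CPM in the other 7 Wistar rats, with 0.0400 to 0.272 CPM in SHR. ENSRNOG00000064118 had 2.44 CPM in Wistar male 4 and 2.15 CPM in Wistar female 2, and at most 0.135 CPM in any other rat of either strain. ENSRNOG00000065474 was graded, with no library off. It had 12.4 CPM in Wistar female 2 alone, 0.228 to 0.790 CPM in the other 8 Wistar rats and 0.154 to 0.499 CPM in SHR. In these 3 the SHR level was that of the low Wistar rats.

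ENSRNOG00000062439 showed a continuous spread. Wistar males 2 to 5 had 0.0380, 5.49, 2.60 and 6.26 CPM, Wistar females 1 to 5 had 0.312, 3.29, 0.707, 5.55 and 5.98 CPM, and SHR had 0.255 to 0.923 CPM. Its neighbour in the order of the table, ENSRNOG00000066356, was also a member, with 0.152, 1.27, 1.55 and 1.40 CPM in Wistar males 2 to 5 and 0.457, 0.725, 1.11, 1.49 and 1.78 CPM in Wistar females 1 to 5. The same rats, Wistar male 2 and Wistar female 1, were the lowest of their sex in both genes. The logged levels of the 2 genes correlated over the 9 Wistar libraries with Pearson's r = 0.884. SHR had 0.665 to 1.52 CPM in the second gene, within its Wistar range.

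Members on neighbouring lines of the table made 4 pairs. In the other 3 pairs the correlation over the 9 Wistar libraries was 0.166 (ENSRNOG00000021323 and ENSRNOG00000012703), -0.178 (ENSRNOG00000069794 and ENSRNOG00000010663) and 0.471 (ENSRNOG00000069483 and ENSRNOG00000062942). Whether the order of the table follows position in the genome was not stated in the sources used here.

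**Figure D4:**
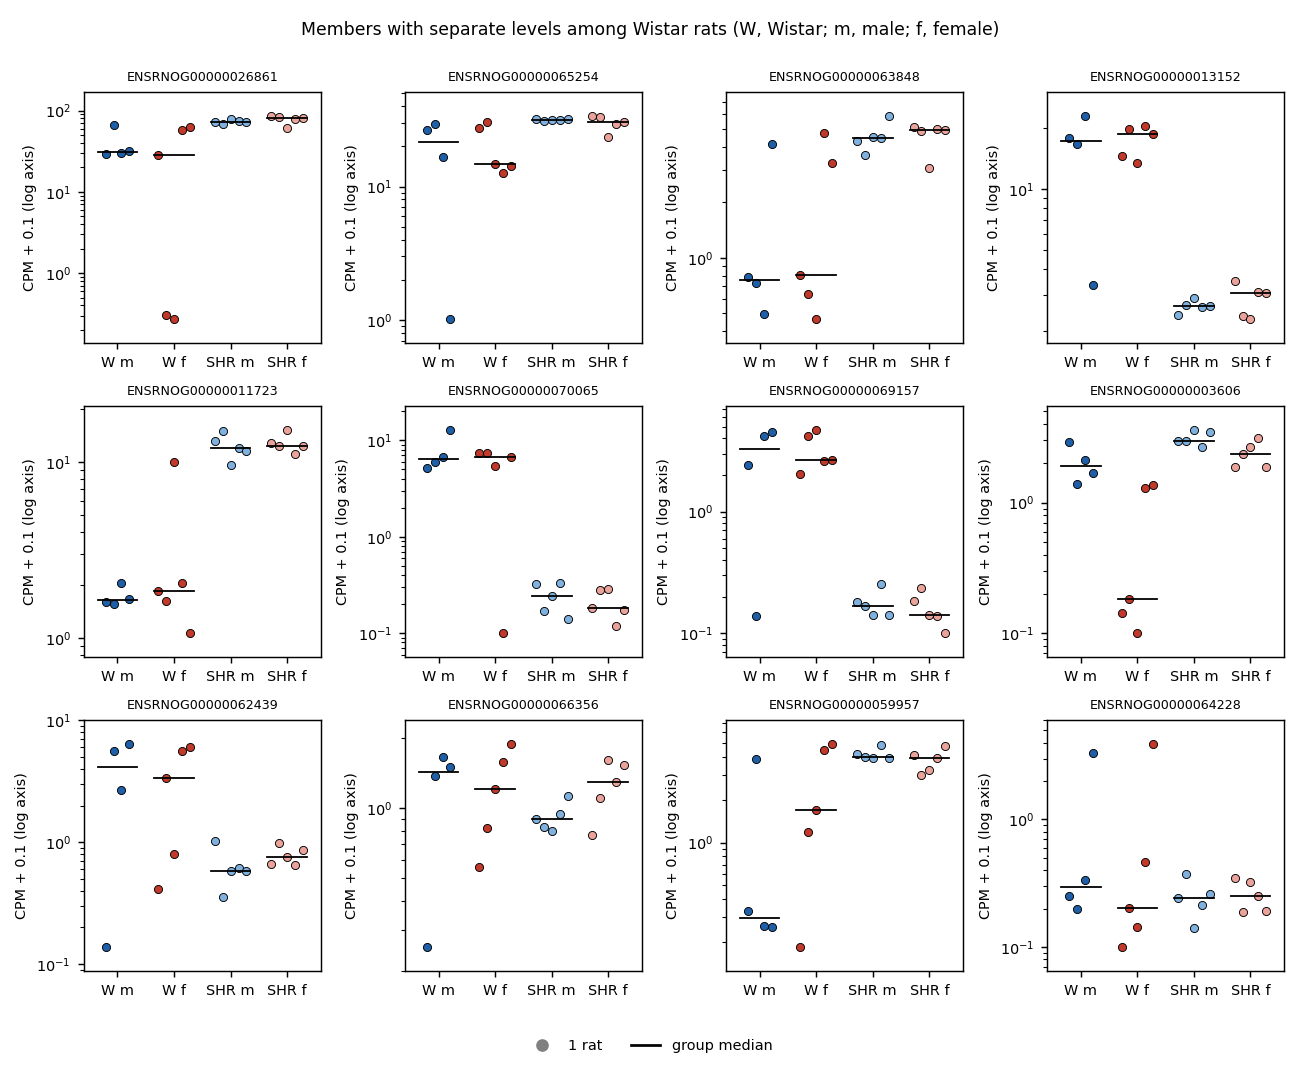
Each panel shows 1 of 12 members described in the text, with CPM + 0.1 on a log axis, 1 point per rat and a line for the group median. Wistar rats (dark points) fall on separate levels, except in ENSRNOG00000062439 and ENSRNOG00000066356, where they spread without separate levels. SHR (pale points) stay together, at the upper Wistar level in ENSRNOG00000026861 (61.1 to 84.9 CPM) and at the lower 1 in ENSRNOG00000013152 (2.18 to 3.43 CPM).

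To describe the state of SHR over all members, each library was placed on the log2(CPM + 0.1) range of the 9 Wistar libraries, from 0 at the lowest to 1 at the highest, and the median position of the 10 SHR libraries was called low up to 0.3, high from 0.7 and intermediate between. SHR was low in 60 members, high in 61 and intermediate in 28. Its median lay below the whole Wistar range in 16 members and above it in 12. The share of all genes with such a median was not counted, so both numbers are descriptions only. The split followed the set. SHR was high in 29 of the 42 members low in Wistar female 1 and low in 27 of the 33 highest in Wistar female 4. In the 42 that met the rule without the 3 libraries it was low in 16, intermediate in 8 and high in 18.

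**Figure D5:**
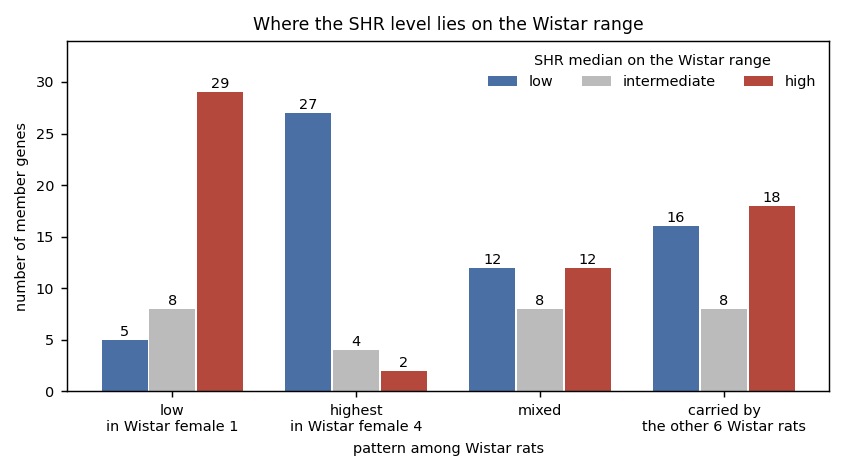
The bars count members (vertical axis) by the position of the SHR median on the Wistar range, low, intermediate or high, for each of the 4 sets on the horizontal axis. The 42 members that met the rule without the 3 libraries had SHR low in 16 and high in 18. The sets that follow a single Wistar library were mostly at 1 end, which their definition favours.

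By the same limits, 31 members had Wistar libraries only at the low and high levels, and 118 had at least 1 library between them. Of the 31, 17 had a single low Wistar library, with SHR high in 14 of these and low in 3. A single high Wistar library was seen in 3, with SHR low in 2 and high in 1, and the other 11 had more than 1 library at each level. Of the 42 members that met the rule without the 3 libraries, 34 had an intermediate library and 8 did not. In 15 of the 42 all 10 SHR libraries were above the Wistar median, and in 11 all 10 were below it. Over the 149 members these numbers were 30 and 37. A narrow SHR range beside a wide Wistar range, as the rule asks, favours such counts. The share over all genes was not counted, so they are descriptions only.

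The members most like the 5 of largest ratio were found by Pearson's r of log2(CPM + 0.1) over the 9 Wistar libraries, given as a description. ENSRNOG00000010423 was most like ENSRNOG00000026861 (r = 0.771), ENSRNOG00000010560 most like ENSRNOG00000021225 (r = 0.992) and ENSRNOG00000012703 most like ENSRNOG00000021229 (r = 0.979). ENSRNOG00000017783 was most like ENSRNOG00000057404 (r = 0.960) and ENSRNOG00000064224 most like ENSRNOG00000070065 (r = 0.830). ENSRNOG00000010423 was at 1.79 and 1.55 CPM in Wistar females 4 and 5 and at 0.207 and 0.171 CPM in Wistar females 2 and 3, the females at the ends of ENSRNOG00000026861 as well. In all 5 pairs the points shared libraries, and in 4 of them 1 or 2 rats were far from the rest.

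The rule did not use the difference between the Wistar sexes, and this comparison asked whether members differed between male and female rats beyond the spread within a sex. It was not independent of the choice, since the rule took genes with a wide spread within a sex, the same spread against which the difference is tested, and genes with a narrow range over SHR of both sexes. A call among the members was therefore unlikely from the start, and the lack of 1 says little about them. Of 17490 genes tested with edgeR's quasi-likelihood test, 11 (0.0629%) differed at a Benjamini-Hochberg adjusted p under 0.05, and 714 (4.08%) had an unadjusted p under 0.05. All 149 members were tested. None was called, the smallest adjusted p being 0.909, and 5 (3.36%) had an unadjusted p under 0.05, 4 higher and 1 lower in females. DESeq2's Wald test called 20 genes and 0 members. At an unadjusted p under 0.05 it had 830 of all genes (4.75%) and 6 members (4.03%).

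The median log2 difference, female over male, was 0.10 over the members and 0.00 over all genes tested. The 5 members with an unadjusted p under 0.05 were ENSRNOG00000067545, ENSRNOG00000065474, ENSRNOG00000051360 and ENSRNOG00000010977, higher in females, and ENSRNOG00000006146, lower in females. In ENSRNOG00000065474 the mean was 2.88 CPM in females and 0.389 CPM in males, and Wistar female 2 alone was above 1 CPM. For ENSRNOG00000010977 the means were 6.33 and 2.90 CPM. Without Wistar female 1, Wistar female 4 and Wistar male 3, 8 of 17474 genes and again no member were called. In that fit 21 of the 143 members tested (14.7%) had an unadjusted p under 0.05, against 470 of all genes (2.69%). These 3 rats were left out because members lay apart in them, which by construction narrows the spread within a sex in the members.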

How the data were processed

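RNA was extracted from bilateral punches (1 mm) of the PVN of individual rats, and stranded poly(A) libraries were sequenced as read pairs. Per the study's methods, read trimming used Trimmomatic (Phred threshold 30), alignment used STAR against the rat build Rn7, and featureCounts assigned reads to genes. The authors deposited the unnormalized counts as 1 table of 30560 Ensembl identifiers by 19 libraries. Columns were matched to samples by the labels, and 0 columns belonged to no sample. Of values from 1 to 100, 73.9% were even, so both reads of many pairs may have been counted, which would make 1 fragment 2 counts. No 2 libraries of a group agreed within sampling noise (smallest chi-square per degree of freedom 5.72).

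Counts were divided by library totals to give CPM, and the rule was applied with 0.1 CPM added in each ratio. The rule, the members and the gene lists were chosen with earlier results of these data known. Identifiers with a symbol in the reference table numbered 0, so the lists of marker and pathway symbols could not be applied and no sequence is shown. Members named were the 15 of largest ratio, the 5 of highest Wistar median, the 3 of highest Wistar maximum for each SHR state, the 3 inside and outside each threshold, pairs on neighbouring lines and most alike pairs. ENSRNOG00000065254, ENSRNOG00000013152, ENSRNOG00000011723, ENSRNOG00000063848, ENSRNOG00000059957, ENSRNOG00000003606, ENSRNOG00000068362, ENSRNOG00000064118 and the genes of counts of 5 or fewer were chosen after their values were seen.

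For Wistar females against males, counts with TMM normalization entered the quasi-likelihood test of edgeR, limited to genes with a mean above 5 median-of-ratios normalized counts, with Benjamini-Hochberg adjustment. The test was checked on simulated data. Replicates were separate rats, and the spread between them includes that of punching and library preparation. Alternatives were TMM and DESeq2 size factors for CPM, the pseudocount, each limit of the rule, leaving out libraries, and DESeq2, other filters, a replicate block, all 4 groups in 1 fit and Bonferroni adjustment for the test. R 4.3.3, edgeR 4.0.16, DESeq2 1.42.0, Python 3.11.15, numpy 2.4.6, pandas 2.3.3 and matplotlib 3.10.9 were used.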

Additional observations from a re-analysis of the deposited data

Results flagged for a closer look

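Each of 44 members named in the text was looked at in each of the 4 groups for a rat set apart from the rest of its group, with the gap to the nearest rat divided by the range of the group set against Dixon's 95% limit. In 170 such groups with any spread 47 values were set apart, where chance gives about 1 in 20 groups. The members were chosen for a wide spread within a Wistar sex, so values set apart in Wistar follow in part from the choice. Of the 47, 24 were in Wistar female 4 and Wistar male 3, and all were levels in CPM.

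Wistar female 4 was set apart above the other females in 12 named members. It had 14.4 CPM in ENSRNOG00000057404, 8.73 CPM in ENSRNOG00000038979, 12.8 CPM in ENSRNOG00000029911 and 4.63 CPM in ENSRNOG00000004210. The level was 25.9 CPM in ENSRNOG00000055049, 3.63 CPM in ENSRNOG00000017409, 1054 CPM in ENSRNOG00000015550 and 106 CPM in ENSRNOG00000020369. It was 56.9 CPM in ENSRNOG00000013720, 38.4 CPM in ENSRNOG00000019573, 15.3 CPM in ENSRNOG00000052173 and 8.30 CPM in ENSRNOG00000003172. In ENSRNOG00000070065 the same rat was set apart below the others, at 0 CPM.

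Wistar male 3 was set apart above the other males in 11 members, 8 of which were among the 12 just named. Its levels were 4.49 CPM in ENSRNOG00000057404, 1.27 CPM in ENSRNOG00000029911, 1.84 CPM in ENSRNOG00000004210 and 8.82 CPM in ENSRNOG00000055049. They were 1.29 CPM in ENSRNOG00000017409, 584 CPM in ENSRNOG00000015550, 65.6 CPM in ENSRNOG00000020369 and 3.72 CPM in ENSRNOG00000003172. The remaining 3 were 3.61 CPM in ENSRNOG00000010977, and 65.9 CPM in ENSRNOG00000026861 and 3.80 CPM in ENSRNOG00000059957, where Wistar females 4 and 5 were high as well. The part of tissue sampling in these values was not tested.

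Wistar female 1 was set apart below in ENSRNOG00000024815 at 0.0831 CPM and above in ENSRNOG00000019336 at 1.23 CPM and in ENSRNOG00000013133 at 2.33 CPM, the other females being at 0 counts in the last gene. In ENSRNOG00000064228 Wistar male 5 and Wistar female 5 were both set apart above, at 3.20 and 3.78 CPM. Wistar male 5 was also high in ENSRNOG00000063848 at 4.07 CPM and in ENSRNOG00000025211 at 0.307 CPM, and Wistar male 4 in ENSRNOG00000064118 at 2.44 CPM. Wistar female 2 was high in ENSRNOG00000065474 at 12.4 CPM, in ENSRNOG00000064118 at 2.15 CPM and in ENSRNOG00000025211 at 1.37 CPM, and Wistar female 3 in ENSRNOG00000011723 at 9.90 CPM.

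In SHR 11 values were set apart, all within the 3-fold range the rule allows. SHR female 3 was low in ENSRNOG00000026861 at 61.1 CPM, in ENSRNOG00000019573 at 9.44 CPM and in ENSRNOG00000063848 at 2.96 CPM, and high in ENSRNOG00000057404 at 0.411 CPM. SHR male 2 was low in ENSRNOG00000021225 at 723 CPM and in ENSRNOG00000001837 at 174 CPM. SHR female 1 was high in ENSRNOG00000021229 at 1430 CPM, SHR male 4 in ENSRNOG00000057404 at 0.501 CPM and SHR female 4 in ENSRNOG00000004210 at 0.189 CPM. In ENSRNOG00000067545 SHR male 3 and SHR female 2 had 0.0400 and 0.0445 CPM, 2 counts each, with the rest of their groups at 0.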

How the results depend on the processing

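The number of members, 149, rested on the limits of the rule. It was 74 with 0.5 CPM added in the ratios (59 of them among the 149), 329 with a Wistar ratio of at least 4, 90 with at least 8, 58 with an SHR ratio of at most 2 and 64 with a highest Wistar level of at least 5 CPM. Leaving out 1 library gave 91 to 166 members, 91 without Wistar female 1. With TMM or DESeq2 size factors there were 148, of which 134 were shared with the 149. Without Wistar female 1, Wistar female 4 and Wistar male 3, chosen after the values were seen, 42 genes remained members, 13 of them with an off library and with SHR low in 16, intermediate in 8 and high in 18, and the exchanged rule gave 7 genes. Members with an off library, 49 in the main run, numbered 36 with off at 0.05 CPM and 70 with off at 0.2 CPM. Over the 149 with single libraries left out, members with an off library numbered 40 to 49, and SHR was low in 58 to 66, intermediate in 25 to 35 and high in 47 to 65. In the comparison of Wistar sexes DESeq2 called 20 genes against 11 (the cause was not tested). Leaving out 1 library gave 10 to 11, and every alternative run called 0 members. Between 2 and 21 members had an unadjusted p under 0.05. Their share was lowest without Wistar male 2, at 1.34% of members tested against 3.43% of all genes. It was highest without Wistar female 1, Wistar female 4 and Wistar male 3, at 14.7% against 2.69%. Without Wistar female 4 alone it was 12.2% against 4.82%, and without Wistar female 5 alone 9.4% against 10.2%. The replicate block over Wistar replicates 2 to 5 called 13 genes and 0 members. Same-numbered males and females gave correlations of 0.0892, -0.0737, -0.168 and 0.382, and only replicate 5 correlated best with its own number. The labels did not say whether the numbers paired the rats, and these correlations cannot settle it. The ratio of 10 of 44 named members moved by more than the spread between replicates with 0.5 CPM added, and of 0 with another normalization. Members near 1 CPM rest on about 50 counts, and levels under about 0.1 CPM could not be told from 0 at this depth.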
